A study of Mus musculus with 8 samples.

Results

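RNA was measured for 9 genes of the regulator of G protein signalling (RGS) family, Rgs1, Rgs2, Rgs3, Rgs10, Rgs11, Rgs14, Rgs16, Rgs18 and Rgs19, in B220+CD3+ mouse spleen cells with and without Eaf2. The 9 genes were taken by symbol, and all 9 were among the 17384 genes of the deposited table. There were 4 libraries from Eaf2-/-Faslpr mice and 4 from Faslpr mice. Both groups carry Faslpr, the lymphoproliferation allele of the death receptor gene Fas, with which B220+CD3+ T cells accumulate in the spleen and lymph nodes. The groups differ by the loss of Eaf2, which encodes a partner of the ELL elongation factors of RNA polymerase II. According to the series text, the sort was made to study apoptosis signalling. The labels used here do not give age, sex, strain background, the form of the Eaf2 deletion or the number of animals behind a library, and p-values therefore measure only the spread between these libraries, which may be technical.

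Receptors with 7 membrane-spanning segments signal by loading GTP onto the alpha subunit of a G protein, which then parts from its beta and gamma subunits. RGS proteins hold the shared RGS domain against the loaded alpha subunit and speed up its hydrolysis of GTP, which ends the signal. In lymphocytes the receptors include those for chemokines, sphingosine 1-phosphate and oxysterols, which steer cells into and out of lymphoid tissue, and RGS1 is known to dampen chemokine responses.

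Of the 9 genes, 4 lie on chromosome 1, and 3 of these (Rgs1, Rgs2 and Rgs18) stand in an unbroken run of RGS genes. RefSeq promoter sequence on build GRCm38.p6, 250 bases before to 50 bases after the annotated start, was available for 5 of the 9 genes. Shown are those of Rgs2, whose transcript differed most between the groups, and of Rgs16, which lies on the same chromosome and had the highest level of the 9 genes. They lie at chr1:144004100-144004399 on the minus strand and at chr1:153740103-153740402 on the plus strand. Capitals mark TGACG, the core of the cAMP response element, read on either strand (CGTCA where it lies on the other strand).
Rgs2 promoter: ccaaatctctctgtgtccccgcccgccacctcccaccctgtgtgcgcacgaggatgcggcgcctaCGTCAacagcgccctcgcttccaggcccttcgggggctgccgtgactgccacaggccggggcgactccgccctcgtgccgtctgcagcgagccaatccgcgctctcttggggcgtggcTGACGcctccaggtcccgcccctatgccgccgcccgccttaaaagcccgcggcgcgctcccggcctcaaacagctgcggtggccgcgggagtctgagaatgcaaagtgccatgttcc
Rgs16 promoter: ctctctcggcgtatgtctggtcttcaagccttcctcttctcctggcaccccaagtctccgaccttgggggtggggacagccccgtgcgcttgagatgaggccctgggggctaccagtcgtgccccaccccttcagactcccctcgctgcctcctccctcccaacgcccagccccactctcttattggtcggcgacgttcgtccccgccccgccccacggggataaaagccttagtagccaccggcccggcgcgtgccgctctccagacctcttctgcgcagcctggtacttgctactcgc
Rgs2 held TGACG at positions -185 (other strand) and -67 from the start, and Rgs16 held none. TGACG stood in 20.8% of the 32851 RefSeq mouse promoters. The full element TGACGTCA, which contains TGACG, stood in 1.79%, the AP-1 site TGANTCA in 7.81% and the TATA box TATAAA in 13.6%, all searched on both strands, and neither of these promoters held any of the 3. Among the other genes with a promoter, Rgs3 held TATAAA at -100 in one annotated promoter and at -177 in another, and Rgs10 and Rgs19 held none of the 4 motifs. These matches describe letters only, at any position in the window. Near matches to TATAAA, such as gataaaa in the Rgs16 promoter, were not counted. Whether any of these promoters has a working TATA box was not tested.

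The libraries held 15.6 to 18.6 megareads by the estimated counts, and levels are given below as CPM (reads per megaread of the tested genes) after scaling by edgeR's trimmed mean of M-values (TMM). Eaf2 stood at 4.02 to 6.29 CPM in the 4 Eaf2-/-Faslpr libraries and at 20.75 to 31.5 CPM in the 4 Faslpr libraries, a log2 fold change of -2.43 (SE 0.18, edgeR adjusted p = 2.9e-05). Fas, altered in both groups, averaged 64.2 ± 6.87 CPM in Eaf2-/-Faslpr cells and 54.3 ± 9.82 CPM in Faslpr cells (n = 4 libraries in each group, SD, edgeR adjusted p = 0.276). T cell markers summed to 6360 to 6590 CPM in Eaf2-/-Faslpr libraries and 6120 to 6660 CPM in Faslpr libraries. B cell markers, of which 13 of 13 rose, summed to 346, 355, 671 and 364 CPM in Eaf2-/-Faslpr replicates 1 to 4 and to 70.9, 106, 148 and 95.4 CPM in Faslpr replicates 1 to 4. Eaf2-/-Faslpr replicate 3 also held the highest summed neutrophil markers (137 CPM, against 15.6 to 21.6 CPM in the other Eaf2-/-Faslpr libraries and 14.3 to 19.9 CPM in Faslpr libraries).

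Rgs1 and Rgs2 rose in Eaf2-/-Faslpr cells, by 2.02-fold and 4.36-fold, and none of the 9 genes fell. The other 6 tested genes (Rgs3, Rgs10, Rgs11, Rgs14, Rgs16 and Rgs19) did not pass the test, and Rgs18 had too few reads to be tested. Over all 12340 genes tested 12.1% passed, 7.14% higher and 4.96% lower, with edgeR's quasi-likelihood test and an adjusted p under 0.05. For 2 of the 8 tested RGS genes, Rgs1 and Rgs2, the CPM ranges of the groups were separate, as they were for 17.7% of all tested genes. The median log2 fold change was 0.17 over the 8 genes and -0.01 over all tested genes. No RGS gene of the 9 was lower at an unadjusted p under 0.05 by edgeR (count 0), and the count of lower genes was also 0 by DESeq2 and by limma-voom. In RNA from sorted bulk samples, fewer cells of a type and less RNA per cell cannot be told apart.

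Rgs2 encodes a small RGS protein known for acting on the Gq class of alpha subunits, and its transcript is rapidly induced by many stimuli. It stood at 49.4, 33.6, 55.7 and 53.4 CPM in Eaf2-/-Faslpr replicates 1 to 4 and at 8.60, 12.0, 13.2 and 10.2 CPM in Faslpr replicates 1 to 4. The lowest Eaf2-/-Faslpr library lay far above the highest Faslpr library, and Eaf2-/-Faslpr replicate 2 stood below the other libraries of its group. The means were 48.0 ± 9.98 CPM in Eaf2-/-Faslpr cells and 11.0 ± 2.02 CPM in Faslpr cells (n = 4 libraries in each group, SD), which is a log2 fold change of 2.13 with an SE of 0.18 (edgeR adjusted p = 7.5e-05). The 95% interval of the fold ran from 3.31 to 5.76.

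Rgs1, which encodes a regulator of Gi and Gq alpha subunits that is expressed in activated lymphocytes, stood at 41.8, 41.7, 38.3 and 40.4 CPM in Eaf2-/-Faslpr replicates 1 to 4. In Faslpr replicates 1 to 4 it stood at 20.5, 22.7, 15.9 and 21.1 CPM. The groups did not overlap, and the Eaf2-/-Faslpr libraries lay close together. The means were 40.5 ± 1.65 CPM in Eaf2-/-Faslpr cells and 20.0 ± 2.91 CPM in Faslpr cells (n = 4 libraries in each group, SD), which is a log2 fold change of 1.02 with an SE of 0.11 (edgeR adjusted p = 0.00031). The 95% interval of the fold ran from 1.71 to 2.39, below that of Rgs2. Both genes passed in each of 14 alternative fits, in which the log2 fold change ran from 0.92 to 1.08 for Rgs1 and from 2.02 to 2.26 for Rgs2.

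**Figure D1:**
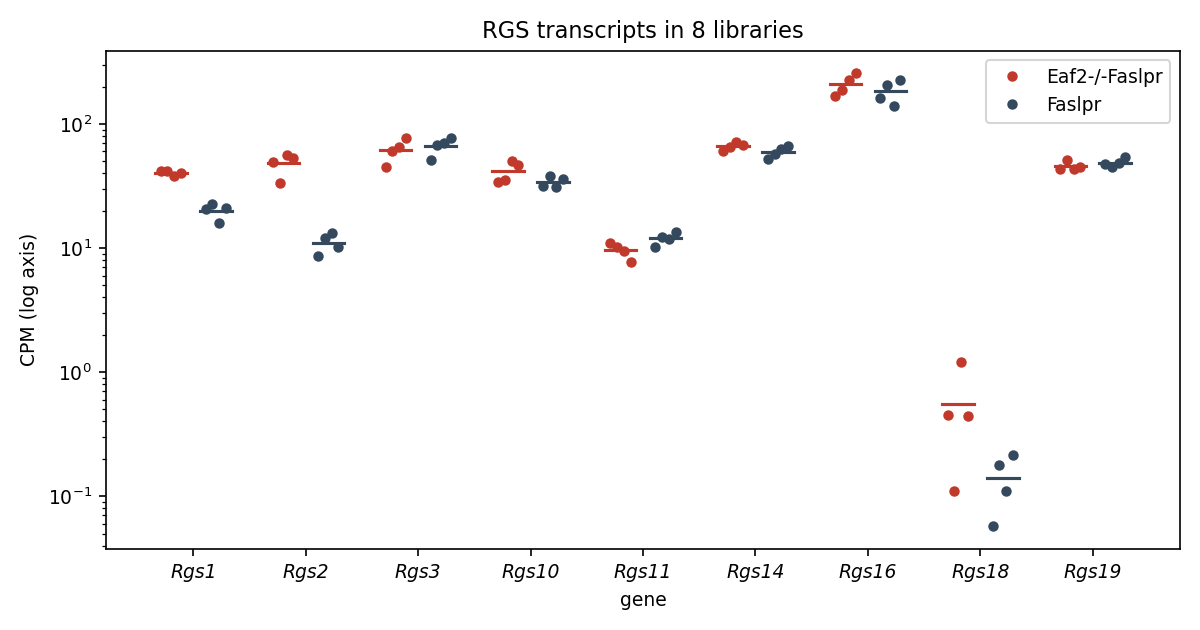
CPM of each of the 9 RGS genes in each library on a log axis, Eaf2-/-Faslpr libraries left of Faslpr libraries within each gene, points for libraries in replicate order and bars for the group mean. Rgs1 (38.3 to 41.8 CPM against 15.9 to 22.7 CPM) and Rgs2 (33.6 to 55.7 CPM against 8.60 to 13.2 CPM) show groups that do not overlap, and the groups overlap for the other tested genes.

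Rgs16 encodes a regulator of Gi and Gq alpha subunits that rises in activated T cells. It had 167.5, 187, 227 and 255 CPM in Eaf2-/-Faslpr replicates 1 to 4 and 160, 204, 139 and 226.5 CPM in Faslpr replicates 1 to 4. These ranges overlapped over most of their width, and the log2 fold change was 0.20 (SE 0.17, edgeR adjusted p = 0.535, 95% interval -0.18 to 0.57). Rgs10, which encodes one of the smallest RGS proteins and is expressed in T cells and microglia, stood at 34.1 to 50.4 CPM in Eaf2-/-Faslpr libraries and 31.0 to 38.0 CPM in Faslpr libraries. In Rgs10, Eaf2-/-Faslpr replicates 3 and 4, at 50.4 and 46.3 CPM, lay above every Faslpr library, while replicates 1 and 2 lay within the Faslpr range. Its log2 fold change was 0.28 (SE 0.14, edgeR adjusted p = 0.232, 95% interval -0.02 to 0.59).

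Rgs14 encodes a protein with an RGS domain, Ras-binding domains and a GoLoco motif that holds inactive Gi alpha subunits. It stood at 60.9 to 71.4 CPM in Eaf2-/-Faslpr libraries and 52.5 to 66.2 CPM in Faslpr libraries, with a log2 fold change of 0.15 (SE 0.09, edgeR adjusted p = 0.326, 95% interval -0.04 to 0.34). Rgs19, also known as GAIP, encodes a regulator of Gi class alpha subunits, and stood at 43.4 to 50.8 CPM in Eaf2-/-Faslpr libraries and 44.6 to 53.8 CPM in Faslpr libraries. Its interval was among the narrowest of the set, -0.27 to 0.10 on the log2 scale around a value of -0.09 (SE 0.08, edgeR adjusted p = 0.587). Rgs3, whose product also binds G beta and gamma subunits, stood at 45.2, 61.0, 65.4 and 76.6 CPM in Eaf2-/-Faslpr replicates 1 to 4 and 50.8, 67.2, 70.1 and 76.9 CPM in Faslpr replicates 1 to 4. Its log2 fold change was -0.09 (SE 0.16, edgeR adjusted p = 0.785, 95% interval -0.46 to 0.27), and its spread within each group was far wider than the difference between the groups. That spread ran in the same replicate order in both groups. In a fit with the replicate number as a block, the log2 fold change was -0.10 (SE 0.07, edgeR adjusted p = 0.429). Rgs11 encodes a regulator of the R7 class, which needs the beta subunit Gnb5 as its partner and is best known from the nervous system and retina. It stood at 7.67 to 11.1 CPM in Eaf2-/-Faslpr libraries and 10.1 to 13.4 CPM in Faslpr libraries, with a log2 fold change of -0.32 (SE 0.14, edgeR adjusted p = 0.206, 95% interval -0.63 to 0.0035). None of these 6 genes passed in any of the 14 alternative fits, and the intervals, not the missed threshold, give the sizes of change that these libraries leave possible.

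Rgs18, which is known from platelets and megakaryocytes, had 7, 2, 22 and 8 reads in Eaf2-/-Faslpr replicates 1 to 4 and 1, 3, 2 and 4 reads in Faslpr replicates 1 to 4. Of the 39 reads in Eaf2-/-Faslpr libraries, more came from replicate 3 than from the other 3 libraries together, and in Faslpr libraries there were 10 reads in all. Summed over libraries, this was 0.556 CPM in Eaf2-/-Faslpr cells (exact Poisson 95% interval 0.395 to 0.76) and 0.141 CPM in Faslpr cells (0.0675 to 0.259), intervals that cover counting error only. Platelet and megakaryocyte markers summed to 6.17 to 7.77 CPM in Eaf2-/-Faslpr libraries and 4.18 to 6.02 CPM in Faslpr libraries. Of 9 such markers, 4 (Pf4, Gp1bb, Gp9 and Treml1) were at or under 3 reads in every library. Another 2 could be tested, and both had higher means in Eaf2-/-Faslpr cells but did not pass. Gp1ba averaged 4.04 CPM in Eaf2-/-Faslpr cells and 3.01 CPM in Faslpr cells (edgeR adjusted p = 0.154). Itga2b averaged 2.18 CPM in Eaf2-/-Faslpr cells and 1.72 CPM in Faslpr cells (edgeR adjusted p = 0.480). Among Eaf2-/-Faslpr libraries, replicate 3 had the highest sums of platelet (7.77 CPM), neutrophil (137 CPM) and macrophage and monocyte markers (185 CPM). It also had the highest sums of B cell (671 CPM), dendritic cell (41.6 CPM) and erythroid markers (22 CPM). Its sums of T cell, NK cell, antibody-secreting cell, and stromal and endothelial markers were not the highest. Its platelet sum was near those of the other Eaf2-/-Faslpr libraries (6.17 to 6.68 CPM). The part of any cell type in the Rgs18 reads was not tested.

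**Figure D2:**
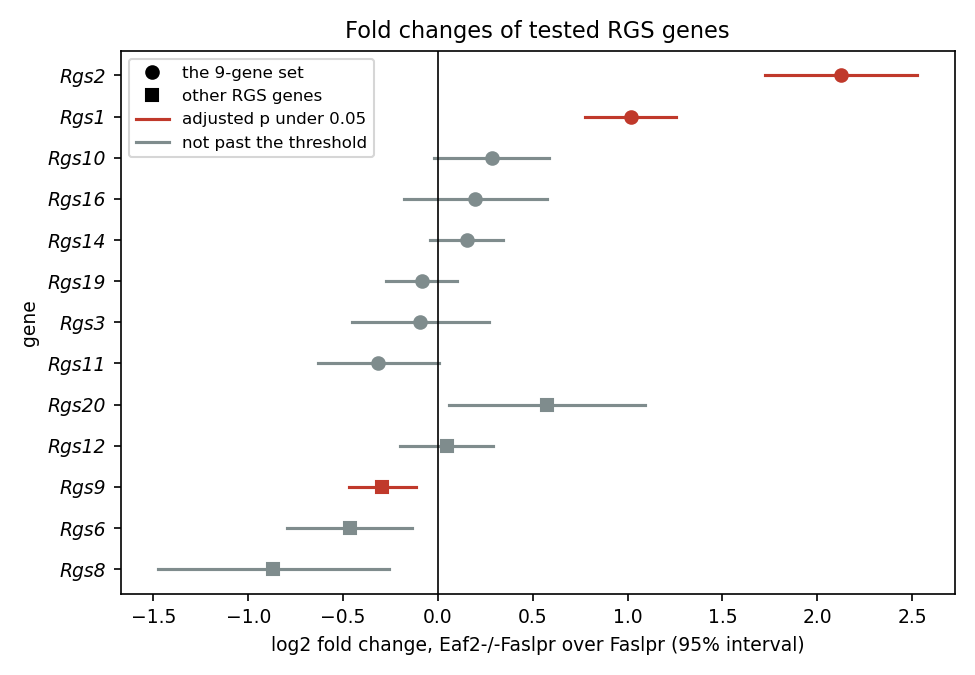
The log2 fold change of Eaf2-/-Faslpr over Faslpr (x axis, points) with its 95% interval (bars) for the tested RGS genes, members of the 9-gene set as circles above the other RGS genes as squares. Rgs2 at 2.13 and Rgs1 at 1.02 stand apart to the right, and Rgs9 at -0.29 is the coloured gene to the left.

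The level of one gene can be set against another only per length of transcript, for which the authors' FPKM values, read fragments scaled by transcript length and library depth, were used. In Eaf2-/-Faslpr cells the order of mean FPKM was Rgs16 (91.8 ± 17.3), Rgs10 (50.3 ± 10.1), Rgs1 (31.7 ± 1.08), Rgs19 (30.6 ± 1.79), Rgs14 (28.8 ± 2.08), Rgs3 (19.7 ± 4.40), Rgs2 (16.3 ± 3.44), Rgs11 (3.73 ± 0.580) and Rgs18 (0.285 ± 0.235), SD over 4 libraries. In Faslpr cells it was Rgs16 (79.5 ± 17.6), Rgs10 (40.9 ± 4.44), Rgs19 (32.6 ± 2.84), Rgs14 (25.7 ± 2.69), Rgs3 (21.1 ± 3.76), Rgs1 (15.55 ± 2.25), Rgs11 (4.54 ± 0.635), Rgs2 (3.70 ± 0.701) and Rgs18 (0.0825 ± 0.0340). Rgs16 and Rgs10 led in both groups and Rgs18 came last in both. Rgs1 stood next after Rgs10 in Eaf2-/-Faslpr cells but below Rgs19, Rgs14 and Rgs3 in Faslpr cells, and Rgs2 stood above Rgs11 in Eaf2-/-Faslpr cells with library ranges that overlapped those of Rgs3. The ranges of neighbours in that order overlapped between Rgs1 and Rgs19, Rgs19 and Rgs14, and Rgs3 and Rgs2 in Eaf2-/-Faslpr cells, and between Rgs14 and Rgs3, Rgs3 and Rgs1, and Rgs11 and Rgs2 in Faslpr cells.

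Set against Rgs16 within each library, Rgs2 had an FPKM ratio of 0.228, 0.139, 0.190 and 0.162 in Eaf2-/-Faslpr replicates 1 to 4 and of 0.0415, 0.0453, 0.0734 and 0.0348 in Faslpr replicates 1 to 4. The ratio of Rgs1 to Rgs16 was 0.445, 0.397, 0.301 and 0.282 in Eaf2-/-Faslpr replicates and 0.228, 0.198, 0.204 and 0.166 in Faslpr replicates. Both ratios were higher in every Eaf2-/-Faslpr library than in any Faslpr library. The ratio of Rgs2 to Rgs1 was 0.512, 0.349, 0.630 and 0.574 in Eaf2-/-Faslpr replicates and 0.182, 0.229, 0.360 and 0.210 in Faslpr replicates, and here Eaf2-/-Faslpr replicate 2 lay just below Faslpr replicate 3.

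**Figure D3:**
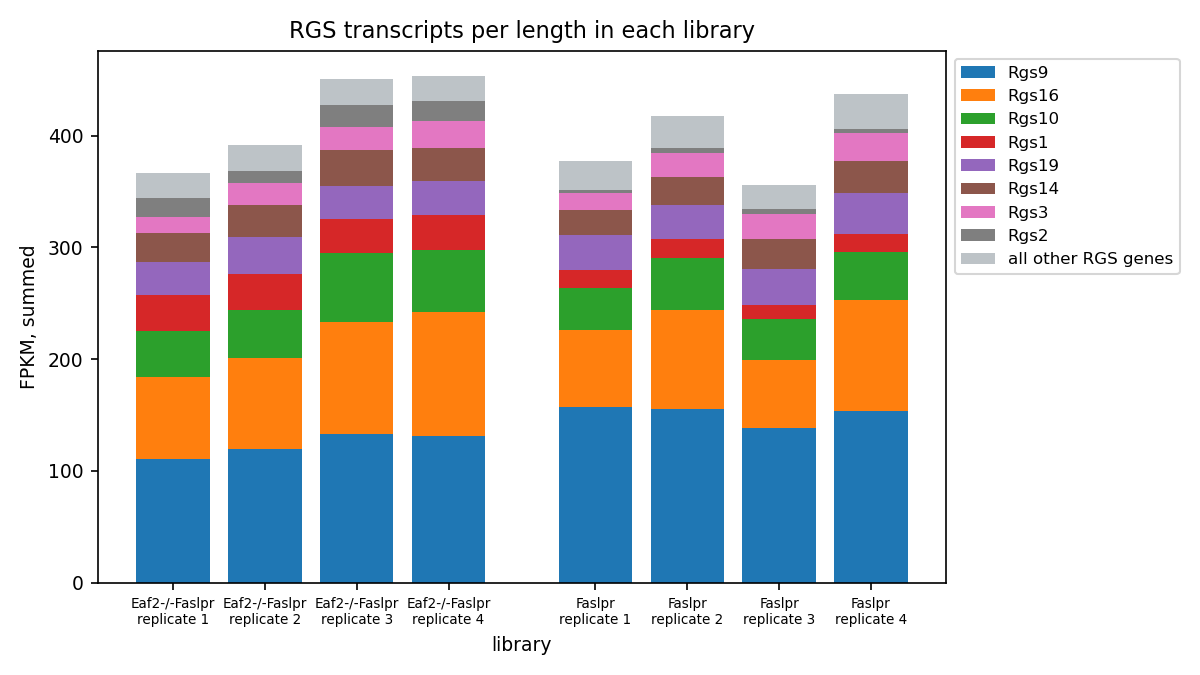
FPKM of RGS genes stacked in each library (y axis, FPKM; Eaf2-/-Faslpr libraries left of Faslpr libraries), with Rgs9 at the base and genes of low level joined as all other RGS genes. Rgs9 and Rgs16 made up most of each column, and the Rgs1 and Rgs2 blocks are thicker in each Eaf2-/-Faslpr library.

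The RGS genes outside the set were examined as background. Of 12 such genes, 11 were in the table and 5 were tested. By edgeR, DESeq2 or limma-voom 0 rose (1, Rgs20, at an unadjusted p under 0.05). By edgeR 1, Rgs9, passed as lower, beside 7.14% of all tested genes higher and 4.96% lower. Rgs9, a regulator of the R7 class known from photoreceptors and striatal neurons, had the highest FPKM of all RGS genes in both groups (124 ± 10.3 in Eaf2-/-Faslpr cells and 151 ± 8.78 in Faslpr cells). It stood at 762 ± 47.5 CPM in Eaf2-/-Faslpr cells and 933 ± 75.0 CPM in Faslpr cells, a log2 fold change of -0.29 (SE 0.08, edgeR adjusted p = 0.0379). That call was lost in 6 of 8 fits that left out a library, with an adjusted p of up to 0.114, and held without Faslpr replicate 3 or 4. Rgs6 (57.2 ± 2.25 CPM in Eaf2-/-Faslpr cells, 79.1 ± 19.1 CPM in Faslpr cells, edgeR adjusted p = 0.0712) and Rgs8 (2.11 ± 0.552 CPM in Eaf2-/-Faslpr cells, 3.84 ± 1.02 CPM in Faslpr cells, edgeR adjusted p = 0.0683) did not pass, but both passed without Faslpr replicate 3 (edgeR adjusted p = 0.00743 and 0.0232) and by DESeq2 (adjusted p = 0.0245 and 0.0346). Rgs12 and Rgs20 did not pass either (edgeR adjusted p = 0.848 and 0.153). Of the genes too low to test, Rgs4, a regulator best known from brain and heart, averaged 0.513 CPM in Eaf2-/-Faslpr cells and 0.514 CPM in Faslpr cells. Rgs5, Rgs17 and Rgs22 stood at no more than 0.164 CPM in any library, and Rgs7 was not analysed here. The 9 genes of the set together took 64.6% to 66.95% of all RGS FPKM in Eaf2-/-Faslpr libraries and 52.4% to 58.8% in Faslpr libraries.

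On chromosome 1, RefSeq gene order on GRCm38.p6 places Rgs2, Rgs13, Rgs1, Rgs21 and Rgs18 as 5 consecutive protein-coding genes. Rgs13, known from germinal centre B cells and mast cells, had 1, 20, 4 and 7 reads in Eaf2-/-Faslpr replicates 1 to 4 and 2, 1, 3 and 0 reads in Faslpr replicates 1 to 4, too few to test. Most of its Eaf2-/-Faslpr reads came from replicate 2, whereas those of Rgs18 came from replicate 3. Rgs21 had 4 reads over the Eaf2-/-Faslpr libraries and 3 over the Faslpr libraries. The genes around the run were chosen after values of these data had been seen. Of the 10 flanking protein-coding genes, 5 on each side, 8 were in the table and 5 were tested. By edgeR 0 passed in either direction. Uchl5, next to Rgs2 and encoding a deubiquitinase of the proteasome, stood at 39.7 ± 1.52 CPM in Eaf2-/-Faslpr cells and 33.2 ± 3.68 CPM in Faslpr cells (n = 4 libraries in each group, SD, edgeR adjusted p = 0.0925), and the other 4, Cdc73, Glrx2, Ro60 and Odr4, had log2 fold changes of -0.01, -0.09, -0.13 and -0.01. The other 5 flanking genes were not tested or were not among the genes of the table.

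**Figure D4:**
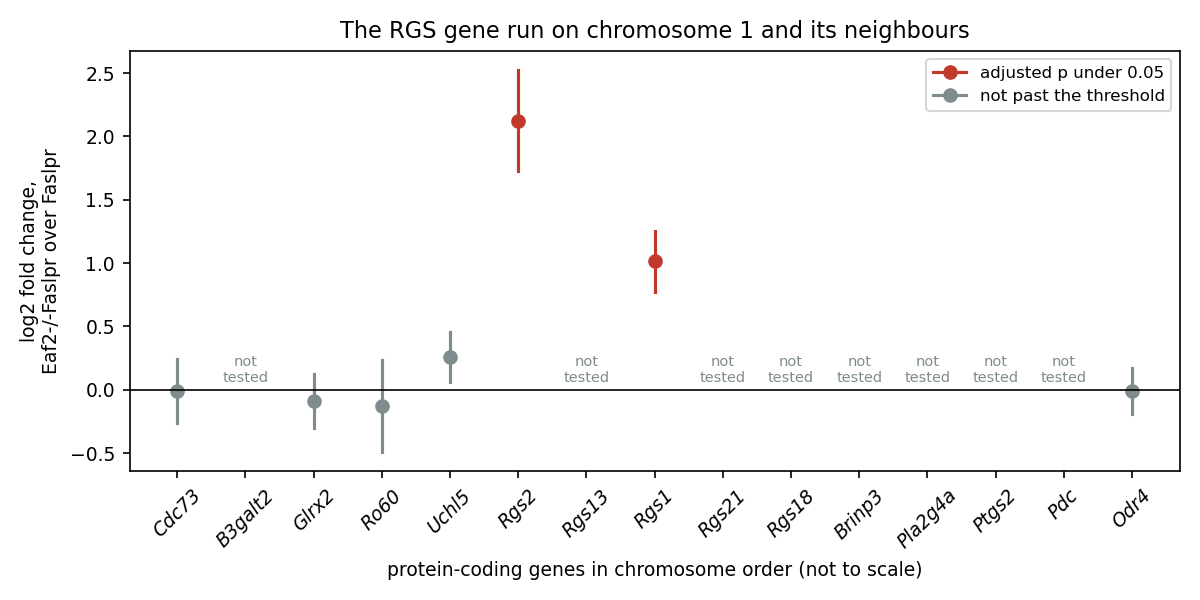
The log2 fold change of Eaf2-/-Faslpr over Faslpr (y axis) with its 95% interval for the RGS run on chromosome 1 and 5 protein-coding genes on each side, in chromosome order and not to scale. Rgs2 and Rgs1 stand at 2.13 and 1.02, the tested flanking genes lie between -0.13 and 0.26, and untested genes are marked.

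Some marker lists of other cells and of stimulation were higher in the same group as Rgs1 and Rgs2, and others were not. Over all tested genes 7.14% rose and 4.96% fell. The B cell sum was lowest at 346 CPM in Eaf2-/-Faslpr libraries and highest at 148 CPM in Faslpr libraries, and its most abundant gene, Cd22, averaged 66.9 CPM in Eaf2-/-Faslpr cells and 16.7 CPM in Faslpr cells. Rgs1 was lowest within each group in the library with the most B cell marker RNA, replicate 3 in both (38.3 CPM in Eaf2-/-Faslpr cells and 15.9 CPM in Faslpr cells), while Rgs2 was highest there (55.7 and 13.2 CPM). These rankings rest on 1 library in each group, and Rgs1 spanned only 38.3 to 41.8 CPM over the Eaf2-/-Faslpr libraries. Such rankings do not test the part of B cells. Without Eaf2-/-Faslpr replicate 3 the log2 fold change was 1.04 for Rgs1 and 2.04 for Rgs2 (edgeR adjusted p = 0.00113 and 0.000367). The Eaf2-/-Faslpr libraries left in that fit had B cell sums of 346 to 364 CPM, still above every Faslpr library. That fit therefore does not test the part of B cells. Immediate early genes, induced within minutes by stimulation or by the handling of cells, summed to 3800, 3740, 4470 and 5310 CPM in Eaf2-/-Faslpr replicates 1 to 4 and to 2990, 2520, 2560 and 3050 CPM in Faslpr replicates 1 to 4, and 9 of 17 tested rose and 1 fell. Macrophage and monocyte markers summed to 81.6 to 185 CPM in Eaf2-/-Faslpr libraries and 61.7 to 78.8 CPM in Faslpr libraries, and 3 of 12 tested rose. Stromal and endothelial markers summed to 129 to 149 CPM in Eaf2-/-Faslpr libraries and 62 to 89.6 CPM in Faslpr libraries, where 2 of 4 tested rose and Pecam1, also expressed by lymphocytes, made up most of the sum. Antibody-secreting cell markers were lower, at 690 to 851 CPM in Eaf2-/-Faslpr libraries and 860 to 983 CPM in Faslpr libraries. Of 8 tested, 1 fell and 0 rose by edgeR. The sums of NK cell, dendritic cell and erythroid markers overlapped between the groups, and no tested gene of these lists passed. Only 1 of 5 NK cell, 3 of 9 dendritic cell and 5 of 8 erythroid genes could be tested. Eomes made up most of the NK cell sum (1540 CPM in Eaf2-/-Faslpr cells, 1790 CPM in Faslpr cells). The other NK cell genes were too low to test. Ncr1 and Klrb1c averaged 0.588 and 0.681 CPM in Eaf2-/-Faslpr cells and 0.0968 and 0.370 CPM in Faslpr cells. Klra4 and Klra8 averaged 0 CPM in Eaf2-/-Faslpr cells and 0.0711 and 0.0590 CPM in Faslpr cells. The marker with the most reads was Nr4a2 among immediate early genes (541 CPM in Eaf2-/-Faslpr cells and 503 CPM in Faslpr cells), Cd68 among macrophage markers (27.2 CPM in Eaf2-/-Faslpr cells and 32.0 CPM in Faslpr cells), and Lck among T cell markers (1140 CPM in Eaf2-/-Faslpr cells and 1160 CPM in Faslpr cells). The part of these cells and genes in the Rgs1 and Rgs2 values was not tested.

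**Figure D5:**
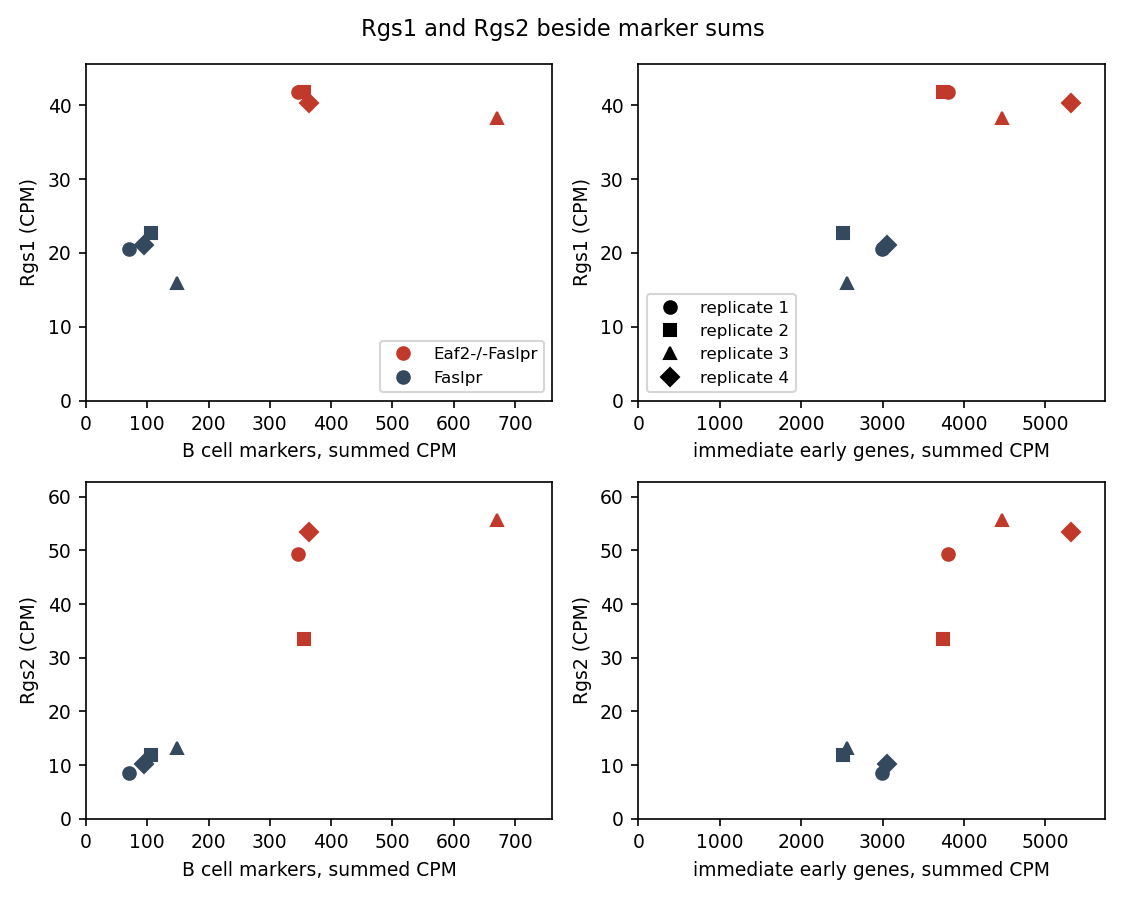
CPM of Rgs1 (top) and Rgs2 (bottom) in each library against the summed CPM of B cell markers (left) and of immediate early genes (right), with a symbol for each replicate number and a colour for each group. The Eaf2-/-Faslpr libraries lie apart from the Faslpr libraries on every axis, and replicate 3 holds the highest B cell sum of each group (671 and 148 CPM).

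Over the 8 libraries, the genes whose log2 CPM followed each of the 2 most closely were ranked by Pearson's r, which the split between the groups raises for any gene that differs between them. For Rgs2 they were Mid1 (r = 0.993), Myo1e (r = 0.990) and Dusp1 (r = 0.989). Dusp1, a phosphatase of MAP kinases and an immediate early gene, averaged 141 CPM in Eaf2-/-Faslpr cells and 14.5 CPM in Faslpr cells, and Mid1, a microtubule-associated ubiquitin ligase, 35.4 CPM in Eaf2-/-Faslpr cells and 10.4 CPM in Faslpr cells. For Rgs1 they were Cep72 (r = 0.984), Iqcb1 (r = 0.981) and Sipa1l2 (r = 0.980). Iqcb1, a cilium protein, averaged 40.9 CPM in Eaf2-/-Faslpr cells and 24.8 CPM in Faslpr cells. No gene was common to both lists of 3.

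The alpha subunits include those of the Gi and Gq classes, on which the RGS proteins described above act. Of 12 alpha subunits tested, 1 fell, and 0 rose by edgeR, DESeq2 or limma-voom (1 at an unadjusted p under 0.05), with a median log2 fold change of -0.02. Counts here and in the lists below stand beside 7.14% of all tested genes that rose and 4.96% that fell. The one that fell was Gnaq, the Gq alpha subunit on which RGS2 acts, with 14.8 ± 2.58 CPM in Eaf2-/-Faslpr cells and 27.0 ± 4.53 CPM in Faslpr cells (n = 4 libraries in each group, SD), which is a log2 fold change of -0.86 (SE 0.15, edgeR adjusted p = 0.00498). Gnaq passed in all 14 alternative fits. Gnai2, the Gi alpha subunit through which chemokine receptors signal in lymphocytes, stood at 576 ± 22.7 CPM in Eaf2-/-Faslpr cells and 624 ± 36.01 CPM in Faslpr cells (log2 fold change -0.12, edgeR adjusted p = 0.331). Gnas, the Gs alpha subunit and the alpha gene with the most reads, stood at 741 ± 31.1 CPM in Eaf2-/-Faslpr cells and 798 ± 83.6 CPM in Faslpr cells (edgeR adjusted p = 0.487).

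Of 10 tested genes for beta and gamma subunits, 1 rose and 0 fell, with a median log2 fold change of -0.04. By DESeq2 and limma-voom 0 fell as well, and 3 were lower at an unadjusted p under 0.05. Gngt2, a gamma subunit, rose at a low level (2.35 ± 1.49 CPM in Eaf2-/-Faslpr cells, 0.639 ± 0.313 CPM in Faslpr cells, edgeR adjusted p = 0.0334), but lost its call without Eaf2-/-Faslpr replicate 2 or 3 or Faslpr replicate 1, 2 or 3 (log2 fold change 1.35 to 2.01, edgeR adjusted p up to 0.0988). Gnb1, the beta gene with the most reads, stood at 292 ± 5.41 CPM in Eaf2-/-Faslpr cells and 271 ± 13.2 CPM in Faslpr cells (edgeR adjusted p = 0.313). Gnb5, the partner of the R7 class, stood at 10.6 ± 1.84 CPM in Eaf2-/-Faslpr cells and 13.9 ± 0.793 CPM in Faslpr cells (edgeR adjusted p = 0.0974).

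Other proteins with an RGS homology domain include the kinases of G protein-coupled receptors. Of 14 tested, 3 passed as higher and 0 as lower by edgeR (2 lower at an unadjusted p under 0.05, 1 by DESeq2 and 0 by limma-voom), at a median log2 fold change of 0.05. Arhgef11, a guanine nucleotide exchange factor, had 9.05 ± 1.78 CPM in Eaf2-/-Faslpr cells and 5.08 ± 0.914 CPM in Faslpr cells (edgeR adjusted p = 0.0167, 0.0502 without Eaf2-/-Faslpr replicate 3, and 0.0622 without both libraries numbered 4). Grk5, a kinase that phosphorylates active receptors, had 5.84 ± 0.565 CPM in Eaf2-/-Faslpr cells and 3.67 ± 0.866 CPM in Faslpr cells (edgeR adjusted p = 0.0453), and held its call only without Faslpr replicate 3 among the 8 fits that left out a library (adjusted p up to 0.123 in the others). Grk3, of the same family, had 2.69 ± 2.66 CPM in Eaf2-/-Faslpr cells and 0.505 ± 0.234 CPM in Faslpr cells (log2 fold change 2.39, edgeR adjusted p = 0.0441). It held its call only without Eaf2-/-Faslpr replicate 2 among those fits (adjusted p up to 0.108 in the others), and its log2 fold change was 1.42 without Eaf2-/-Faslpr replicate 3. Arhgef1, the gene of this list with the most reads, stood at 979 ± 92.3 CPM in Eaf2-/-Faslpr cells and 994 ± 119 CPM in Faslpr cells. Of 7 tested GoLoco and other non-receptor regulators, 0 passed in either direction by edgeR or limma-voom, 1 was higher by DESeq2, and 1 was higher and 1 lower at an unadjusted p under 0.05, at a median of -0.04. Ccdc88c, the gene of that list with the most reads, stood at 457 ± 53.9 CPM in Eaf2-/-Faslpr cells and 508 ± 49.1 CPM in Faslpr cells (edgeR adjusted p = 0.411).

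Among 14 tested effectors and arrestins, 1 rose and 1 fell, at a median of -0.03. Adcy6, an adenylyl cyclase that makes cAMP, had 6.97 ± 2.36 CPM in Eaf2-/-Faslpr cells and 2.77 ± 0.547 CPM in Faslpr cells (log2 fold change 1.33, SE 0.27, edgeR adjusted p = 0.00989). Pik3cg, the phosphoinositide 3-kinase subunit driven by beta and gamma subunits, had 108 ± 16.6 CPM in Eaf2-/-Faslpr cells and 151 ± 20.0 CPM in Faslpr cells (edgeR adjusted p = 0.0293). Its call was lost without Eaf2-/-Faslpr replicate 1, 3 or 4 or Faslpr replicate 1 or 2 (adjusted p up to 0.0854). Adcy7, the effector with the most reads, stood at 689 ± 48.3 CPM in Eaf2-/-Faslpr cells and 754 ± 22.9 CPM in Faslpr cells (edgeR adjusted p = 0.293).

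Of 27 tested lymphocyte receptors that couple to G proteins, 7 rose and 4 fell, at a median of 0.06. Over all tested genes 7.14% rose and 4.96% fell. Gpr183, the oxysterol receptor that guides cells to follicle borders, fell to 395 ± 54.9 CPM in Eaf2-/-Faslpr cells, against 685 ± 72.6 CPM in Faslpr cells (edgeR adjusted p = 0.0014), and Cxcr5, the CXCL13 receptor of follicular homing, to 240 ± 22.2 CPM in Eaf2-/-Faslpr cells, against 364 ± 19.7 CPM in Faslpr cells (edgeR adjusted p = 0.00114). Cnr2, the cannabinoid receptor of immune cells, had 15.9 ± 4.17 CPM in Eaf2-/-Faslpr cells and 5.18 ± 1.66 CPM in Faslpr cells (edgeR adjusted p = 0.00237). Ccr6, the CCL20 receptor, had 7.73 ± 3.10 CPM in Eaf2-/-Faslpr cells and 1.95 ± 1.03 CPM in Faslpr cells (edgeR adjusted p = 0.00602). B cell markers were higher in every Eaf2-/-Faslpr library. The part of B cells in the values of Gpr183 and Cxcr5, which fell, and of Cnr2 and Ccr6, which rose, was not tested. The number of receptors that rose was 3 without Eaf2-/-Faslpr replicate 3 and 4 without Eaf2-/-Faslpr replicate 2, Faslpr replicate 1 or Faslpr replicate 2.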

How the data were processed

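RNA of sorted B220+CD3+ spleen cells was extracted with TRIzol and made into mRNA libraries for DNBSEQ sequencing, per the labels' protocols. The authors deposited RSEM estimated counts and FPKM per library, and also TPM values and normalised counts as a signal scale, which were not used (16 columns). Per the submitters' processing notes, these came from RSEM 1.3.1, HISAT2 2.2.1 and Bowtie2 2.4.5, named without their roles, on GRCm39. For annotation, filters and strandedness nothing was stated. Whole numbers (within 0.001) made up 36.8% of the deposited counts.

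Groups came from the sample titles and the series text. Estimated counts were rounded, genes kept by edgeR's filterByExpr (12340 of 17384), scaled by TMM and tested with edgeR 4.0.16 (R 4.3.3), quasi-likelihood, with Benjamini-Hochberg adjustment over all tested genes at 0.05. Intervals of fold changes use the t quantile at each gene's total degrees of freedom in edgeR's test, residual plus prior (median 10.3). A floor of 3 reads corresponds to 0.161 to 0.193 CPM per library. Pairs of libraries within a group differed by 9.46 to 36.7 times counting noise (chi-square per degree of freedom), so no library was a copy of another. The fit was tested on simulated data.

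The text names all 9 genes, the other RGS genes, up to 4 passing genes of each pathway list by smallest p, the gene of each pathway list with the most reads, that of the marker lists described at most length, and the 3 genes most like Rgs1 and Rgs2 by Pearson's r of log2(CPM + 0.5) among genes of at least 5 CPM. Gnai2, Gnb5 and the genes flanking the chromosome 1 run were named after their values were seen. The members and lists were chosen with earlier results of these data known. Alternatives were DESeq2 1.42.0 and its size factors, limma-voom 3.58.1, no filter, a replicate block, each library left out, and both libraries numbered 4 left out. Promoter sequences come from RefSeq on GRCm38.p6.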

Additional observations from a re-analysis of the deposited data

How the results depend on the processing

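Calls of the 9 RGS genes (2 higher, 0 lower) were the same in all 14 alternative fits, although Rgs3 changed sign without passing (-0.21 to 0.03). Among other results, genes called lower numbered 612, and 403 without both libraries numbered 4. Other RGS genes called lower numbered 3 by DESeq2 and 0 without both libraries numbered 4. With those left out, Arhgef11, Grk3 and Grk5 all lost their calls (adjusted p = 0.0622, 0.1 and 0.182) and 1 RGS homology gene outside these 3 passed as higher, while Adcy6 lost its call (0.0702), leaving 0 effectors higher. DESeq2 called 1 RGS homology gene lower and 1 GoLoco gene higher, as did the fit with no filter for GoLoco (1). Limma-voom called 0 beta or gamma genes higher. With the replicate block 1 beta or gamma gene fell, Rgs9 lost its call (adjusted p = 0.0891), as did Grk5 (0.0707), Rgs8 passed (0.0425), and 1425 genes passed in place of 1493. Same-numbered libraries correlated at 0.155, 0.176, 0.0556 and -0.0605, and 4 of 8 correlated best with their own number. These were the libraries numbered 1 and 2 in both groups. Such values cannot decide whether the numbers pair libraries, and the main fit does not pair them. Leaving out each library in turn gave 372 to 659 genes lower, 0 to 3 other RGS genes lower, 0 to 2 homology genes higher, 0 to 1 beta or gamma genes higher and 0 to 1 lower, 0 to 1 GoLoco genes lower, 0 to 1 effectors lower, 3 to 8 receptors higher, and Fas at 0.16 to 0.37 (adjusted p = 0.0415 without Faslpr replicate 4). The cause was not tested. Rgs13, Rgs18 and Rgs21 lie near the floor of 3 reads, where depth limits any comparison.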
